A study of Mus musculus with 14 samples.

Results

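Inmt and Aldh1l1 encode enzymes that use one-carbon units, and they are described here with the genes closest to them in the same chemistry. The set holds 8 of the 24054 genes in the count table and was chosen by symbol. It consists of the amine and nicotinamide methyltransferase genes Inmt and Nnmt, the formyl-tetrahydrofolate dehydrogenase genes Aldh1l1 and Aldh1l2, the methylene-tetrahydrofolate dehydrogenase genes Mthfd1 and Mthfd2, and the serine hydroxymethyltransferase genes Shmt1 and Shmt2. Inmt and Aldh1l1 entered the choice because they were among the largest rises in libraries with a hairpin against Foxo1 relative to those with a scrambled hairpin, so the values of that comparison are a description without a test for all 8 genes, and those of Inmt and Aldh1l1 are a description throughout.

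Polyadenylated RNA of mouse left ventricle was sequenced in 14 libraries of 3 groups, and the labels name the mice C56Bl6. The group labelled HFpEF-FoxO1-sh has 5 libraries, from mice given 6 weeks of high-fat diet plus L-NAME and 4 weeks of an adeno-associated viral vector (AAV) encoding a hairpin RNA against Foxo1. HFpEF-scr has 4 libraries from mice with the same diet and the same time under an AAV with a scrambled hairpin, and the control group has 5 libraries from mice on a standard diet for 10 weeks, with no AAV named. L-NAME blocks nitric oxide synthases, and the combination is a mouse model of HFpEF, heart failure in which the ejection fraction is preserved. HFpEF-FoxO1-sh against HFpEF-scr sets one hairpin against the other under the same diet, whereas each HFpEF group differs from control in diet, L-NAME and AAV together, which cannot be told apart. The promoter and serotype of the AAV, the sex and age of the mice and their number are not given in the sources used here. Nothing in the labels states that replicates are different animals, and p-values therefore cover only the variation among these libraries, which may be technical.

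The one-carbon network moves single carbons on the carrier tetrahydrofolate. Serine hydroxymethyltransferases load a carbon from serine, methylene-tetrahydrofolate dehydrogenases interconvert its oxidation states, and formyl-tetrahydrofolate dehydrogenases release it as CO2 and return free tetrahydrofolate with NADPH. Most steps have one enzyme in the cytosol and another in mitochondria. Carbons that leave the folate cycle through methionine become the methyl group of S-adenosylmethionine, the donor that Inmt, Nnmt and other methyltransferases spend on small molecules. The network supplies purines, NADPH and methyl groups to resting tissue such as adult heart muscle, and thymidylate to dividing cells.

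The genes lie at the following places of GRCm38, with the span and strand of GENCODE vM21. Inmt is on the minus strand at chr6:55170626-55175043, and Aldh1l1 is on the plus strand of the same chromosome at chr6:90486427-90600203. Mthfd2 is also on that chromosome, on the minus strand at chr6:83305691-83325908. Aldh1l2 and Shmt2 are both on the minus strand of chromosome 10, at chr10:83487450-83534140 and chr10:127517123-127522444. Nnmt is on the minus strand at chr9:48591877-48605153, Mthfd1 on the plus strand at chr12:76255298-76319803 and Shmt1 on the minus strand at chr11:60788104-60811718. Of the exon bases of Aldh1l1, 13.4% also belong to exons of Gm15756 on the other strand or Gm45901 on the same strand, and 14.1% of those of Aldh1l2 belong to exons of D10Wsu102e on the other strand. Whether the counting used strand is not given in the sources used here, so reads from those bases cannot be placed with certainty. For Inmt, Nnmt and Mthfd2 no exon base was shared, and for Mthfd1, Shmt1 and Shmt2 the share was 0.8%, 4.7% and 1.0%.

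Promoters are shown for the genes with the clearest differences between groups, so that their sequence can be set beside the levels. RefSeq's table for GRCm38.p6 held 6 of the 8 genes, without Nnmt and Aldh1l2. Each sequence is the 250 bases before the RefSeq start, read 5′ to 3′ on the gene's strand, and capitals mark letters that match a motif named after the sequences. The windows are chr6:55174991-55175240 for Inmt, chr6:90550543-90550792 for Aldh1l1 and chr11:60811266-60811515 for Shmt1, and each lies wholly or partly within the GENCODE span of its gene, since both annotations place the start differently.
Inmt: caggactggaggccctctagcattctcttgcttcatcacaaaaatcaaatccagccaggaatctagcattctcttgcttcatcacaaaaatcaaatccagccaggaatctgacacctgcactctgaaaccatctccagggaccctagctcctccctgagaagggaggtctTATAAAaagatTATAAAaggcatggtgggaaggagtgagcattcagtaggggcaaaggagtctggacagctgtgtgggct
Aldh1l1: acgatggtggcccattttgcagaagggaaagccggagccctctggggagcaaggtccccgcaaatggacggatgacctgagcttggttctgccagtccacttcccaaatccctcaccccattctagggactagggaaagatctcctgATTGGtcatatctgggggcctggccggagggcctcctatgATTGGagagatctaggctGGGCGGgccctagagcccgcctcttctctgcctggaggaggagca
Shmt1: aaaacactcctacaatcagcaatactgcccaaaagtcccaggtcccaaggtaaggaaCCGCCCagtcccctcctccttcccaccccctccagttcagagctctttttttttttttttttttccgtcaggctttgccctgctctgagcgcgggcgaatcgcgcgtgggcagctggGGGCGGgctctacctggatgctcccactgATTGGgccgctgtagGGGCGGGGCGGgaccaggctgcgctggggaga

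Both strands were searched for the FoxO motif GTAAACA, the ATF4 motif TGATGNAA, the E-box CACGTG, the GC box GGGCGG, the TATA box TATAAA and the CCAAT box CCAAT. In the Inmt promoter the TATA box began at -80 and again at -69 from the start, and 12.37% of the 32851 promoters in the table held that motif. That promoter also held an exact direct repeat of 46 bases, with one copy from -235 and the next from -189, so that the copies adjoin. In the other 5 promoters the longest exact direct repeat had between 8 and 11 bases. The Aldh1l1 promoter held the CCAAT box, as ATTGG, at -103 and -63 and a GC box at -45. In the Shmt1 promoter GC boxes began at -193, -76, -32 and -27, of which the last pair overlap, and a CCAAT box at -47. The GC box occurred in 32.74% of all promoters and the CCAAT box in 33.85%. The letters GTAAACA, TGATGNAA and CACGTG were in none of the 6 windows, and 3.17%, 3.45% and 6.02% of all promoters held them. GC content was 48.0% for Inmt, 59.6% for Aldh1l1 and 60.0% for Shmt1, against a median of 52.4% over all promoters.

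Library totals ran from 13.17 to 21.25 M expected counts (M, units of 1000000), and 13588 genes passed the filter on low counts, among them all 8 described here. Foxo1, the target of the hairpin, averaged 42.4 ± 2.56 CPM (counts per 1000000) in HFpEF-FoxO1-sh libraries (SD, n = 5), 43.5 ± 3.74 in HFpEF-scr (SD, n = 4) and 44.0 ± 1.93 in control (SD, n = 5). Between the hairpins its log2 fold change was -0.04 ± 0.06 SE (edgeR's quasi-likelihood test, adjusted p = 0.780), and every direction below is therefore one between libraries labelled HFpEF-FoxO1-sh and others. Each of the 10 cardiomyocyte markers was detected, with a sum between 108047 and 127014 CPM per library. The library HFpEF-scr 1 stands apart, with 6024 CPM of red cell markers where the next HFpEF-scr library had 1110. Between HFpEF-FoxO1-sh and HFpEF-scr, 4 of 14 fibroblast, 2 of 10 macrophage, 1 of 10 endothelial, 3 of 16 immediate early and 2 of 14 clock genes fell and none rose, where 2.26% of all genes fell. The part of these shifts in the values below was not tested. In pieces of tissue, fewer cells of a type and less RNA per cell cannot be told apart.

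**Figure D1:**
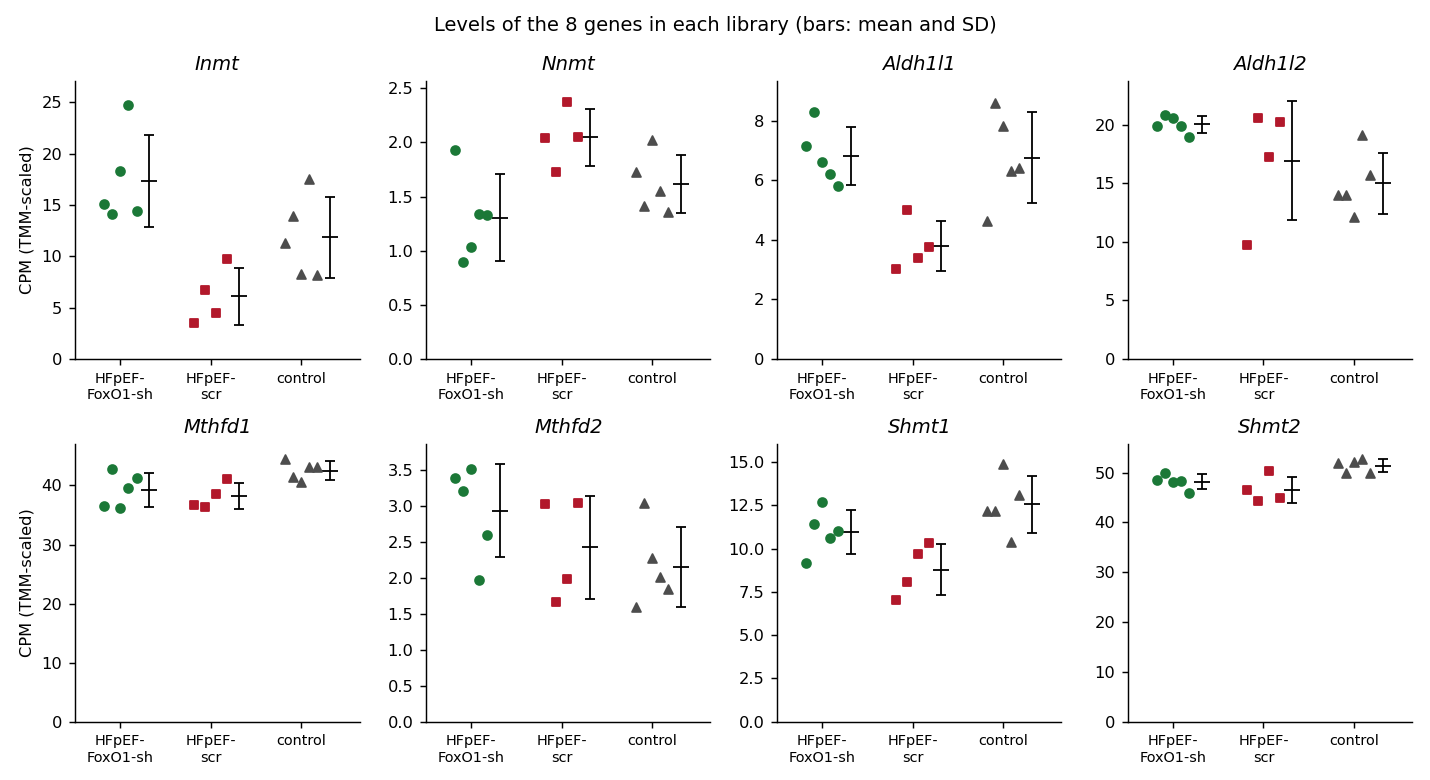
CPM of the 8 genes in each library, 1 panel per gene with its own axis from 0, for HFpEF-FoxO1-sh (n = 5), HFpEF-scr (n = 4) and control (n = 5); points are libraries and bars the mean and SD. For Inmt and Aldh1l1 the HFpEF-FoxO1-sh points lie above every HFpEF-scr point, and for Shmt1 every HFpEF-scr point lies below the control points.

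Compared per kilobase of exon, the order of levels within a group spans the network. In HFpEF-FoxO1-sh libraries the highest was Shmt2 with 15.5 ± 0.470 CPM per kb, followed by Inmt with 10.8 ± 2.78 and Mthfd1 with 8.85 ± 0.650 (SD, n = 5 each). Shmt1 with 2.82 ± 0.330, Aldh1l2 with 2.67 ± 0.0988 and Aldh1l1 with 1.51 ± 0.214 CPM per kb came next, and Mthfd2 with 0.842 ± 0.185 and Nnmt with 0.826 ± 0.251 were lowest. In that order the ranges of mean ± SD overlap for Inmt and Mthfd1, for Shmt1 and Aldh1l2, and for Mthfd2 and Nnmt. In HFpEF-scr libraries Inmt stood at 3.83 ± 1.74 CPM per kb, below Mthfd1 with 8.60 ± 0.491 (SD, n = 4 each). In control libraries Inmt had 7.39 ± 2.47 and Mthfd1 9.57 ± 0.346 CPM per kb, which overlap in their spread (SD, n = 5 each). Inmt was also among the genes that varied most between libraries of one group, with a coefficient of variation of CPM of 25.7%, 45.4% and 33.5% in HFpEF-FoxO1-sh, HFpEF-scr and control. Shmt2 varied by 3.03%, 5.77% and 2.51% in the same order.

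Inmt, the indolethylamine N-methyltransferase that methylates tryptamine and other amines, was the gene with the largest called rise of the whole table in HFpEF-FoxO1-sh against HFpEF-scr, which is how it was chosen. In HFpEF-FoxO1-sh 1 to 5 its level was 15.1, 14.1, 18.3, 24.7 and 14.4 CPM. HFpEF-scr 1 to 4 had 3.52, 6.72, 4.48 and 9.78 CPM, and control 1 to 5 had 11.3, 13.9, 8.29, 17.5 and 8.18 CPM. Every HFpEF-FoxO1-sh library was above every HFpEF-scr library, and the control libraries overlapped both. The log2 fold change was 1.50 ± 0.28 SE for HFpEF-FoxO1-sh against HFpEF-scr, a fold of 2.83. It was -0.95 ± 0.28 for HFpEF-scr against control and 0.55 ± 0.24 for HFpEF-FoxO1-sh against control. The order of means was thus HFpEF-FoxO1-sh, then control, then HFpEF-scr, with neighbours overlapping in their libraries. Without HFpEF-scr 1, the lowest library, HFpEF-FoxO1-sh against HFpEF-scr gave 1.32 ± 0.28 and HFpEF-scr against control gave -0.77 ± 0.29.

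In the heart Inmt levels can be set beside markers of the mesothelium, the cell layer that covers the organ. The 7 mesothelial markers were each detected, and none was at 0 in every library. Their sum in HFpEF-FoxO1-sh 1 to 5 was 18.5, 22.2, 31.0, 43.4 and 27.2 CPM, against 18.5, 17.1, 21.3 and 31.5 CPM in HFpEF-scr 1 to 4. Control 1 to 5 had 33.6, 24.5, 16.6, 36.4 and 22.7 CPM. In each of the 3 groups the library with the highest sum, which was replicate 4, was also the library with the highest Inmt level. At the low end they differed in each group. The lowest sums were in HFpEF-FoxO1-sh 1, HFpEF-scr 2 and control 3, and the lowest Inmt levels in HFpEF-FoxO1-sh 2, HFpEF-scr 1 and control 5. The groups overlapped in the sum, and 0 of the 7 markers was called in any of the 3 comparisons. Wt1, a transcription factor gene, ran against the other 6 markers, with 15.0 CPM in HFpEF-scr 1, where it made up most of the sum, and 6.84 CPM in HFpEF-FoxO1-sh 1. Without Wt1, a choice made after the data were seen, the sum was 11.7, 16.1, 24.1, 36.5 and 20.6 CPM in HFpEF-FoxO1-sh 1 to 5, against 3.52, 8.45, 15.0 and 21.8 CPM in HFpEF-scr 1 to 4. Control 1 to 5 had 24.5, 17.4, 10.8, 29.8 and 17.8 CPM on that sum. It was thus mostly lower in HFpEF-scr, as Inmt was, with overlapping groups, and replicate 4 was again highest in each group. The lowest library on that sum was also the lowest for Inmt in HFpEF-scr alone. Upk3b, a uroplakin gene, had 3.25, 6.87, 9.24, 14.5 and 8.27 CPM in HFpEF-FoxO1-sh 1 to 5 and 0.844, 3.39, 4.35 and 6.09 CPM in HFpEF-scr 1 to 4. In control 1 to 5 Upk3b had 9.56, 6.90, 3.65, 12.9 and 6.61 CPM, and the groups overlapped. The part of mesothelial cells in the Inmt differences was not tested.

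**Figure D2:**
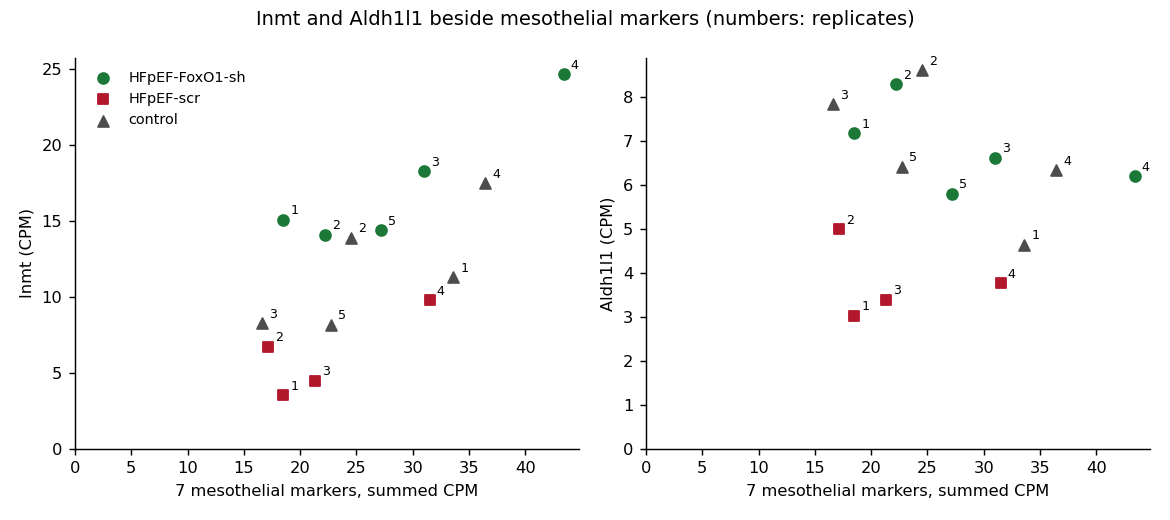
Levels of Inmt (left) and Aldh1l1 (right) in CPM against the summed CPM of 7 mesothelial markers, with 1 point per library and its replicate number, for HFpEF-FoxO1-sh, HFpEF-scr and control. Replicate 4 is highest on both axes of the Inmt panel in each group, whereas no library is the lowest of its group on both. In HFpEF-scr 1 most of the marker sum of 18.5 CPM was Wt1, at 15.0 CPM.

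Nnmt, which methylates nicotinamide and so draws on the same methyl donor, ran the other way at a low level. It had 1.93, 0.896, 1.03, 1.34 and 1.33 CPM in HFpEF-FoxO1-sh 1 to 5, from 12 to 29 counts per library. HFpEF-scr 1 to 4 had 2.04, 1.73, 2.37 and 2.05 CPM, and control 1 to 5 had 1.73, 1.41, 2.02, 1.55 and 1.36 CPM. One HFpEF-FoxO1-sh library lay within the HFpEF-scr range and the other 4 were below it. Between the hairpins the log2 fold change was -0.64 ± 0.21. HFpEF-scr against control gave 0.34 ± 0.21 (edgeR, adjusted p = 0.349) and HFpEF-FoxO1-sh against control -0.31 ± 0.21 (edgeR, adjusted p = 0.373). Per kilobase, the ratio of Inmt to Nnmt was 13.9 ± 4.55 in HFpEF-FoxO1-sh (SD, n = 5), 3.03 ± 1.48 in HFpEF-scr (SD, n = 4) and 7.46 ± 2.91 in control (SD, n = 5). The lowest ratio in HFpEF-FoxO1-sh was 7.73 and the highest in HFpEF-scr 4.70. Inmt alone, chosen for that difference, already did not overlap between these groups, so the gap in the ratio adds nothing to it.

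Aldh1l1, the cytosolic formyl-tetrahydrofolate dehydrogenase, was the 7th largest called rise in HFpEF-FoxO1-sh against HFpEF-scr. HFpEF-FoxO1-sh 1 to 5 had 7.17, 8.29, 6.62, 6.20 and 5.80 CPM. In HFpEF-scr 1 to 4 the level was 3.03, 4.99, 3.39 and 3.76 CPM, and in control 1 to 5 it was 4.64, 8.61, 7.83, 6.33 and 6.41 CPM. HFpEF-scr stood below both other groups except that control 1 lay within its range, and the HFpEF-FoxO1-sh libraries lay within the control range. The log2 fold change was 0.84 ± 0.18 for HFpEF-FoxO1-sh against HFpEF-scr, -0.82 ± 0.18 for HFpEF-scr against control and 0.02 ± 0.16 for HFpEF-FoxO1-sh against control. The 95% interval of the last ran from -0.32 to 0.36. Without HFpEF-scr 1 the first was 0.75 ± 0.20 and the second -0.73 ± 0.20. Aldh1l1 was highest in replicate 2 of each group, where the mesothelial sum was 22.2, 17.1 and 24.5 CPM in HFpEF-FoxO1-sh, HFpEF-scr and control.

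Aldh1l2, the mitochondrial counterpart, overlapped between the hairpins. Its level in HFpEF-FoxO1-sh 1 to 5 was 19.9, 20.8, 20.6, 19.9 and 18.9 CPM, the tightest of the 3 groups. HFpEF-scr 1 to 4 had 9.71, 20.6, 17.2 and 20.2 CPM, and control 1 to 5 had 14.0, 14.0, 12.1, 19.1 and 15.7 CPM. The low HFpEF-scr value is again replicate 1, and without it HFpEF-FoxO1-sh against HFpEF-scr moved to 0.05 ± 0.11, against 0.24 ± 0.16 with it. HFpEF-FoxO1-sh against control gave 0.42 ± 0.16 with an interval from 0.09 to 0.75 (edgeR, adjusted p = 0.0910), and 4 of 5 HFpEF-FoxO1-sh libraries were above every control library. This value was called in a fit of those groups alone (adjusted p = 0.0112) and without control 4 (adjusted p = 0.0419). HFpEF-scr against control gave 0.18 ± 0.17 (edgeR, adjusted p = 0.563), and 0.36 ± 0.11 without HFpEF-scr 1 (adjusted p = 0.0575). The ratio of Aldh1l2 to Aldh1l1 per kilobase was 1.79 ± 0.193 in HFpEF-FoxO1-sh (SD, n = 5), 2.68 ± 0.592 in HFpEF-scr (SD, n = 4) and 1.41 ± 0.432 in control (SD, n = 5).

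Mthfd1, the trifunctional cytosolic enzyme that makes and interconverts formyl- and methylene-tetrahydrofolate, was nearly level. It had 36.6, 42.8, 36.2, 39.6 and 41.3 CPM in HFpEF-FoxO1-sh 1 to 5, against 36.7, 36.4, 38.5 and 41.1 CPM in HFpEF-scr 1 to 4. Control 1 to 5 had 44.4, 41.4, 40.5, 43.1 and 43.2 CPM. The log2 fold change between the hairpins was 0.04 ± 0.06. HFpEF-scr against control gave -0.16 ± 0.06 (edgeR, adjusted p = 0.108) and HFpEF-FoxO1-sh against control -0.11 ± 0.05 (edgeR, adjusted p = 0.182), with overlapping libraries in both.

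Mthfd2, the mitochondrial dehydrogenase and cyclohydrolase known for its low level in adult tissue, had between 24 and 51 counts per library. It stood at 3.39, 3.21, 3.52, 1.97 and 2.60 CPM in HFpEF-FoxO1-sh 1 to 5. HFpEF-scr 1 to 4 had 3.03, 1.66, 1.98 and 3.05 CPM, and control 1 to 5 had 1.59, 3.04, 2.28, 2.02 and 1.84 CPM. The groups overlapped throughout. Its log2 fold change was 0.28 ± 0.23 for HFpEF-FoxO1-sh against HFpEF-scr and 0.19 ± 0.24 for HFpEF-scr against control (edgeR, adjusted p = 0.687). For HFpEF-FoxO1-sh against control it was 0.46 ± 0.22, with an interval from 0.00 to 0.93 (edgeR, adjusted p = 0.187).

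Shmt1, the cytosolic serine hydroxymethyltransferase, was lower in HFpEF-scr than in control. HFpEF-scr 1 to 4 had 7.04, 8.10, 9.67 and 10.3 CPM, and control 1 to 5 had 12.2, 12.2, 14.9, 10.4 and 13.1 CPM. Each HFpEF-scr library was below each control library, the nearest pair by a small margin. Shmt1 fell by 0.51 ± 0.13 on the log2 scale in HFpEF-scr against control, an adjusted p of 0.0225 by edgeR, with an interval from -0.78 to -0.25. The call was lost in 2 of 9 refits without 1 library, namely without control 3 (adjusted p = 0.0611) and without HFpEF-scr 2 (adjusted p = 0.0610), and in a fit of those groups alone (adjusted p = 0.0512). Without HFpEF-scr 1 it was -0.42 ± 0.13 (adjusted p = 0.0491). In the same comparison 3 of 10 cardiomyocyte markers fell, where 3.70% of all genes fell. Markers that rose were 3 of 10 pericyte and smooth muscle, 2 of 14 fibroblast, 2 of 10 endothelial and 1 of 10 macrophage genes. So did 1 of 4 Schwann and glia and 3 of 16 immediate early genes, where 3.66% of all genes rose. No other marker list held a called gene. The part of these shifts in the Shmt1 difference was not tested. HFpEF-FoxO1-sh 1 to 5 had 9.16, 11.4, 12.7, 10.6 and 11.0 CPM, which overlapped both other groups. Shmt1 in HFpEF-FoxO1-sh gave a log2 fold change of 0.32 ± 0.13 against HFpEF-scr, and -0.20 ± 0.12 against control (edgeR, adjusted p = 0.292), with an interval from -0.44 to 0.05 for the second.

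Shmt2, the mitochondrial serine hydroxymethyltransferase, varied little within groups. It had 48.6, 49.9, 48.1, 48.4 and 45.9 CPM in HFpEF-FoxO1-sh 1 to 5, against 46.6, 44.3, 50.3 and 44.9 CPM in HFpEF-scr 1 to 4. Control 1 to 5 had 52.0, 50.0, 52.2, 52.7 and 50.0 CPM. Differences were small beside those of Shmt1, with 0.05 ± 0.05 for HFpEF-FoxO1-sh against HFpEF-scr and -0.14 ± 0.05 for HFpEF-scr against control (edgeR, adjusted p = 0.0624). HFpEF-FoxO1-sh against control gave -0.09 ± 0.04 (edgeR, adjusted p = 0.165), although the libraries of those groups did not overlap. Per kilobase, Shmt2 exceeded Shmt1 by a ratio of 5.55 ± 0.702 in HFpEF-FoxO1-sh (SD, n = 5), 6.74 ± 1.17 in HFpEF-scr (SD, n = 4) and 5.18 ± 0.738 in control (SD, n = 5).

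Counts over the 8 genes in HFpEF-FoxO1-sh against HFpEF-scr follow from how they were chosen, and nothing is read from them. Inmt and Aldh1l1 were called there and did not overlap between the groups, where 3.58% of all genes tested were called, 1.32% higher and 2.26% lower, and 8.34% did not overlap. In HFpEF-scr against control 1 of the other 6 genes was called, Shmt1, which was also the one without overlap between the groups. Of all genes tested 7.37% were called in that comparison, 3.70% lower and 3.66% higher, and 8.93% did not overlap. Aldh1l1 passed the threshold there too, as did Inmt with DESeq2 alone, but the HFpEF-scr libraries had served to choose both, so neither is counted. In HFpEF-FoxO1-sh against control edgeR, DESeq2 and limma voom called 0 of 8, which takes in Inmt and Aldh1l1 as a description. There edgeR called 13.0% of all genes, 6.68% higher and 6.28% lower. Shmt2 was the 1 gene of the 8 without overlap between those groups, against 12.1% of all genes. These comparisons share libraries, so their values are set side by side only.

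**Figure D3:**
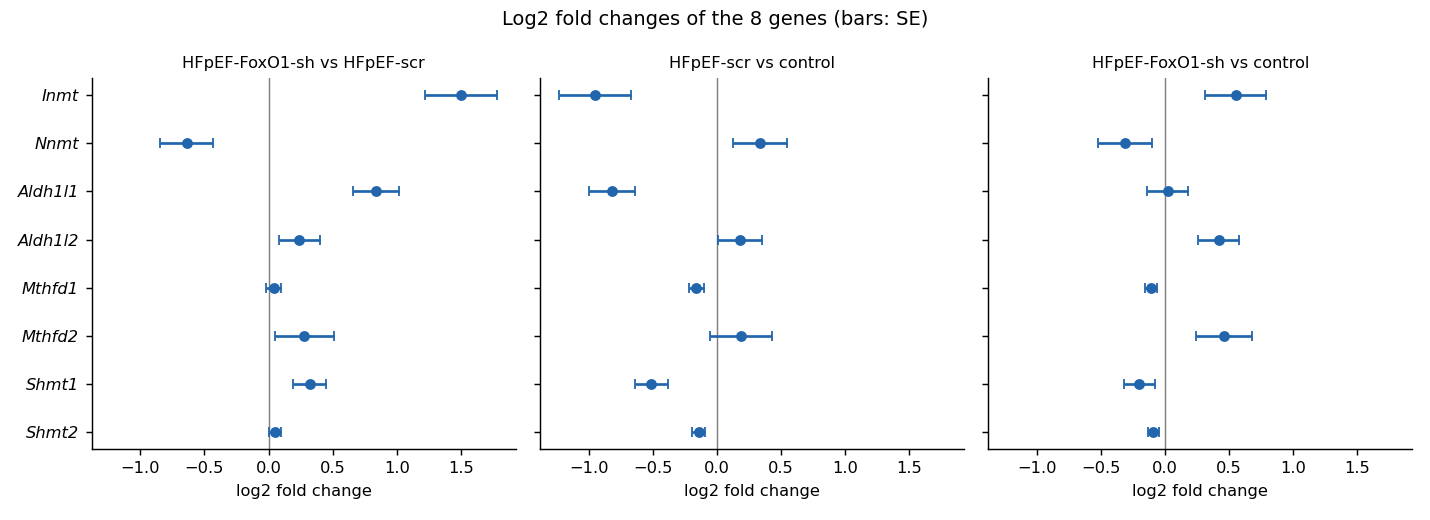
Log2 fold changes of the 8 genes with bars of 1 SE, for HFpEF-FoxO1-sh against HFpEF-scr, HFpEF-scr against control and HFpEF-FoxO1-sh against control. Inmt and Aldh1l1 lie to the right of 0 in the first panel, at 1.50 and 0.84, and to the left in the second, at -0.95 and -0.82; Mthfd1 and Shmt2 stay within 0.16 of 0 in each.

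Around these genes, 7 lists of one-carbon and neighbouring metabolism held 133 other genes, of which 115 were tested. In HFpEF-FoxO1-sh against HFpEF-scr 5 rose and 2 fell, 6.09% of those tested against 3.58% of all genes, with a median log2 fold change of 0.05. HFpEF-scr against control had 10 that rose and 6 that fell, 13.9% against 7.37%, with a median of 0.00. In HFpEF-FoxO1-sh against control 16 rose and 4 fell, 17.4% against 13.0%, with a median of 0.03. The median over all genes tested was 0.00 in each comparison. The lists were written with earlier results of these data known, so nothing is read from the differences in share. Adjusted p of the genes named in the next paragraphs are from edgeR over all 13588 genes.

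In the folate uptake and cycle list none of 16 genes tested was called between the hairpins, and 1 was called in HFpEF-scr against control. Gart, an enzyme of purine synthesis that takes its carbon from formyl-tetrahydrofolate, fell by 0.18 ± 0.05 in HFpEF-scr relative to control (adjusted p = 0.0339), a call lost in 6 of 9 refits without 1 library and furthest without HFpEF-scr 4 (adjusted p = 0.0847). In HFpEF-FoxO1-sh against control 1 rose and 1 fell. Mthfd1l, the mitochondrial synthetase that frees formate from formyl-tetrahydrofolate, rose by 1.04 ± 0.28 (adjusted p = 0.0249). It averaged 3.63 ± 0.737 CPM in HFpEF-FoxO1-sh (SD, n = 5), 1.80 ± 0.865 in HFpEF-scr (SD, n = 4) and 1.81 ± 0.674 in control (SD, n = 5), and the lowest HFpEF-FoxO1-sh library, 2.69 CPM, was above the highest control library, 2.36 CPM. Between the hairpins its value was 1.02 ± 0.31 (adjusted p = 0.0713). The call against control was lost in 4 of 10 refits without 1 library, furthest without HFpEF-FoxO1-sh 1 (adjusted p = 0.0652). Folr2, a folate receptor gene known from macrophages, fell by 0.80 ± 0.16 in HFpEF-FoxO1-sh against control (adjusted p = 0.00388), with 3.47 ± 0.452 CPM in HFpEF-FoxO1-sh and 6.10 ± 1.28 in control (SD, n = 5 each). In the same comparison 8 of 10 macrophage markers fell, where 6.28% of all genes fell. The macrophage markers had sums from 147 to 186 CPM in HFpEF-FoxO1-sh and from 199 to 271 CPM in control, and their part in the Folr2 difference was not tested.

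Of 16 genes of the methionine cycle, transsulfuration and polyamines, 1 fell between the hairpins, 3 rose in HFpEF-scr against control, and 2 rose and 1 fell in HFpEF-FoxO1-sh against control. Sms, spermine synthase, rose in both HFpEF groups against control, by 0.39 ± 0.06 in HFpEF-FoxO1-sh (adjusted p = 0.000446) and by 0.31 ± 0.06 in HFpEF-scr (adjusted p = 0.00710). Odc1, the ornithine decarboxylase that starts polyamine synthesis, averaged 76.7 ± 6.15 CPM in HFpEF-FoxO1-sh (SD, n = 5), 90.7 ± 6.36 in HFpEF-scr (SD, n = 4) and 93.2 ± 3.21 in control (SD, n = 5). It fell by 0.28 ± 0.06 in HFpEF-FoxO1-sh against control (adjusted p = 0.00399). Against HFpEF-scr it fell by 0.24 ± 0.06 (adjusted p = 0.0360), a call lost in 7 of 9 refits without 1 library, furthest without HFpEF-scr 1 (adjusted p = 0.105). Slc25a26, which carries S-adenosylmethionine into mitochondria, rose by 0.21 ± 0.05 in HFpEF-FoxO1-sh against control (adjusted p = 0.0105) and by 0.19 ± 0.05 in HFpEF-scr relative to control (adjusted p = 0.0388). Mat2a, which makes S-adenosylmethionine outside the liver, rose by 0.23 ± 0.06 in HFpEF-scr relative to control (adjusted p = 0.0325). Both calls in HFpEF-scr were lost in 6 of 9 refits without 1 library, furthest without HFpEF-scr 4 (adjusted p = 0.120 for Slc25a26 and 0.104 for Mat2a). Ahcy, which clears the product of all these methyl transfers, was at 0.04 ± 0.06 in HFpEF-FoxO1-sh against HFpEF-scr (adjusted p = 0.750).

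Of 15 genes tested that supply serine, glycine or choline carbons, 1 rose between the hairpins, 1 in HFpEF-scr against control and 2 in HFpEF-FoxO1-sh against control, and none fell. Slc1a5, a neutral amino acid carrier, rose by 0.38 ± 0.08 in HFpEF-FoxO1-sh against HFpEF-scr (adjusted p = 0.0260) and by 0.26 ± 0.08 against control (adjusted p = 0.0400). The first call was lost in 6 of 9 refits without 1 library, furthest without HFpEF-FoxO1-sh 1 (adjusted p = 0.0659), and the second in 7 of 10, furthest without control 1 (adjusted p = 0.0956). Gcsh, the carrier subunit of the glycine cleavage system, rose by 0.23 ± 0.06 in HFpEF-FoxO1-sh against control (adjusted p = 0.0126). Slc38a2, another amino acid carrier, rose by 0.42 ± 0.11 in HFpEF-scr relative to control (adjusted p = 0.0382), a call lost in 7 of 9 refits without 1 library and furthest without HFpEF-scr 4 (adjusted p = 0.114). Phgdh, the first enzyme of serine synthesis, was at 0.46 ± 0.31 between the hairpins (adjusted p = 0.431).

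Of 16 other methyltransferase genes tested, 1 rose between the hairpins, 1 in HFpEF-scr against control and 5 in HFpEF-FoxO1-sh against control, and none fell. Most act on small molecules, but Carm1, Icmt, Lcmt1 and Pcmt1 act on proteins, and Pcmt1 is among the 5. Mettl7a1, whose human counterpart is known as a thiol methyltransferase, rose by 0.40 ± 0.06 in HFpEF-FoxO1-sh against HFpEF-scr (adjusted p = 0.00448), with 53.6 ± 3.09 CPM in HFpEF-FoxO1-sh (SD, n = 5) and 40.7 ± 2.45 in HFpEF-scr (SD, n = 4). Its lowest HFpEF-FoxO1-sh library, 49.9 CPM, was above the highest HFpEF-scr library, 43.2 CPM, and the call was kept in each of 9 refits without 1 library. Against control Mettl7a1 rose by 0.30 ± 0.06 (adjusted p = 0.00389). As3mt, an arsenite methyltransferase gene, rose by 0.27 ± 0.04 in HFpEF-FoxO1-sh against control (adjusted p = 0.000446), and Coq3, a methyltransferase of ubiquinone synthesis, by 0.16 ± 0.04 (adjusted p = 0.0158).

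Nicotinamide, the substrate of Nnmt, is otherwise recycled to NAD. Of 19 genes of nicotinamide and NAD metabolism tested, 2 rose between the hairpins, 3 rose and 2 fell in HFpEF-scr against control, and 3 rose in HFpEF-FoxO1-sh against control. Nampt, the enzyme that returns nicotinamide to the NAD pathway, had 462 ± 35.4 CPM in HFpEF-FoxO1-sh (SD, n = 5), 361 ± 39.2 in HFpEF-scr (SD, n = 4) and 297 ± 23.2 in control (SD, n = 5). It rose by 0.36 ± 0.08 in HFpEF-FoxO1-sh against HFpEF-scr (adjusted p = 0.0201) and by 0.64 ± 0.07 in HFpEF-FoxO1-sh against control (adjusted p = 3.18e-05). In HFpEF-scr against control it rose by 0.28 ± 0.08 (adjusted p = 0.0339). The call between the hairpins was lost without HFpEF-FoxO1-sh 1 (adjusted p = 0.0531). That of HFpEF-scr against control was lost in 6 of 9 refits, furthest without HFpEF-scr 4 (adjusted p = 0.111). In HFpEF-FoxO1-sh against control 4 of 14 clock genes rose and 3 fell, where 6.68% of all genes rose and 6.28% fell. The part of that shift in the Nampt difference was not tested. Aox1, an aldehyde oxidase that oxidises methylnicotinamide, the product of Nnmt, rose by 0.79 ± 0.12 in HFpEF-FoxO1-sh against control (adjusted p = 0.000623) and by 0.46 ± 0.13 in HFpEF-scr relative to control (adjusted p = 0.0445). Between the hairpins it was at 0.33 ± 0.13 (adjusted p = 0.158). The lowest HFpEF-scr library for Aox1, 43.6 CPM, lay within the control range of 41.7 to 56.3 CPM. Refits of its call in HFpEF-scr without 1 library are not given here. Nadk2, the mitochondrial NAD kinase, rose by 0.36 ± 0.05 in HFpEF-FoxO1-sh against control (adjusted p = 0.000446) and by 0.21 ± 0.06 in HFpEF-scr relative to control (adjusted p = 0.0353). The second of these was lost in 7 of 9 refits, furthest without HFpEF-scr 4 (adjusted p = 0.110).

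Naprt1, which makes NAD from nicotinic acid, fell by 0.36 ± 0.09 in HFpEF-scr relative to control (adjusted p = 0.0225). It was also called in HFpEF-FoxO1-sh against HFpEF-scr, at 0.34 ± 0.09 (adjusted p = 0.0443), but that call was lost in 8 of 9 refits without 1 library, furthest without HFpEF-FoxO1-sh 4 (adjusted p = 0.0979). The call against control was lost in 3 of 9, furthest without HFpEF-scr 4 (adjusted p = 0.0658). Sirt3, the mitochondrial NAD-dependent deacylase, fell by 0.29 ± 0.08 in HFpEF-scr relative to control (adjusted p = 0.0301), a call lost in 5 of 9 refits and furthest without HFpEF-scr 2 (adjusted p = 0.0788).

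ATF4 is a stress-response transcription factor known to drive Mthfd2, Shmt2 and Aldh1l2. Of 21 genes of that response tested, 1 fell between the hairpins, 2 rose and 1 fell in HFpEF-scr against control, and 1 rose and 1 fell in HFpEF-FoxO1-sh against control. The list's median log2 fold change was -0.04, 0.10 and -0.01 in that order. Atf4 itself was at 0.07 ± 0.09 between the hairpins (adjusted p = 0.756). Cebpg, a partner factor of ATF4, rose by 0.36 ± 0.07 in HFpEF-scr relative to control (adjusted p = 0.00568) and by 0.32 ± 0.07 in HFpEF-FoxO1-sh against control (adjusted p = 0.00484). Aldh18a1, an enzyme of proline synthesis, fell by 0.42 ± 0.10 in HFpEF-FoxO1-sh against control (adjusted p = 0.0161), and by 0.46 ± 0.11 against HFpEF-scr (adjusted p = 0.0340). The second call was lost in 6 of 9 refits, furthest without HFpEF-scr 1 (adjusted p = 0.103). In HFpEF-scr against control Cebpb rose by 0.60 ± 0.17 (adjusted p = 0.0470), and the secreted glycoprotein gene Stc2 fell by 0.51 ± 0.14 (adjusted p = 0.0391). Those calls were lost in 7 of 9 refits, furthest without HFpEF-scr 4 (adjusted p = 0.163), and in 6 of 9, furthest without control 3 (adjusted p = 0.0972).

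Of 12 aldehyde dehydrogenase genes tested outside the folate enzymes, 1 rose between the hairpins, 2 fell in HFpEF-scr against control, and 2 rose and 1 fell in HFpEF-FoxO1-sh against control. Aldh1a1, a cytosolic retinal dehydrogenase gene, rose in HFpEF-FoxO1-sh, by 0.57 ± 0.12 against HFpEF-scr (adjusted p = 0.0224) and by 0.71 ± 0.12 against control (adjusted p = 0.000833). It had 30.7 ± 3.86 CPM in HFpEF-FoxO1-sh (SD, n = 5), 20.8 ± 3.74 in HFpEF-scr (SD, n = 4) and 18.8 ± 2.48 in control (SD, n = 5). The call against HFpEF-scr was lost in 5 of 9 refits without 1 library, furthest without HFpEF-scr 3 (adjusted p = 0.0603). Aldh1b1, a mitochondrial member, fell by 0.50 ± 0.07 in HFpEF-FoxO1-sh (adjusted p = 0.000249) and by 0.68 ± 0.08 in HFpEF-scr (adjusted p = 7.90e-05), both against control. Aldh5a1, succinate semialdehyde dehydrogenase, fell by 0.24 ± 0.05 in HFpEF-scr relative to control (adjusted p = 0.00737). Aldh2, which clears acetaldehyde, rose by 0.21 ± 0.05 in HFpEF-FoxO1-sh against control (adjusted p = 0.0144).

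**Figure D4:**
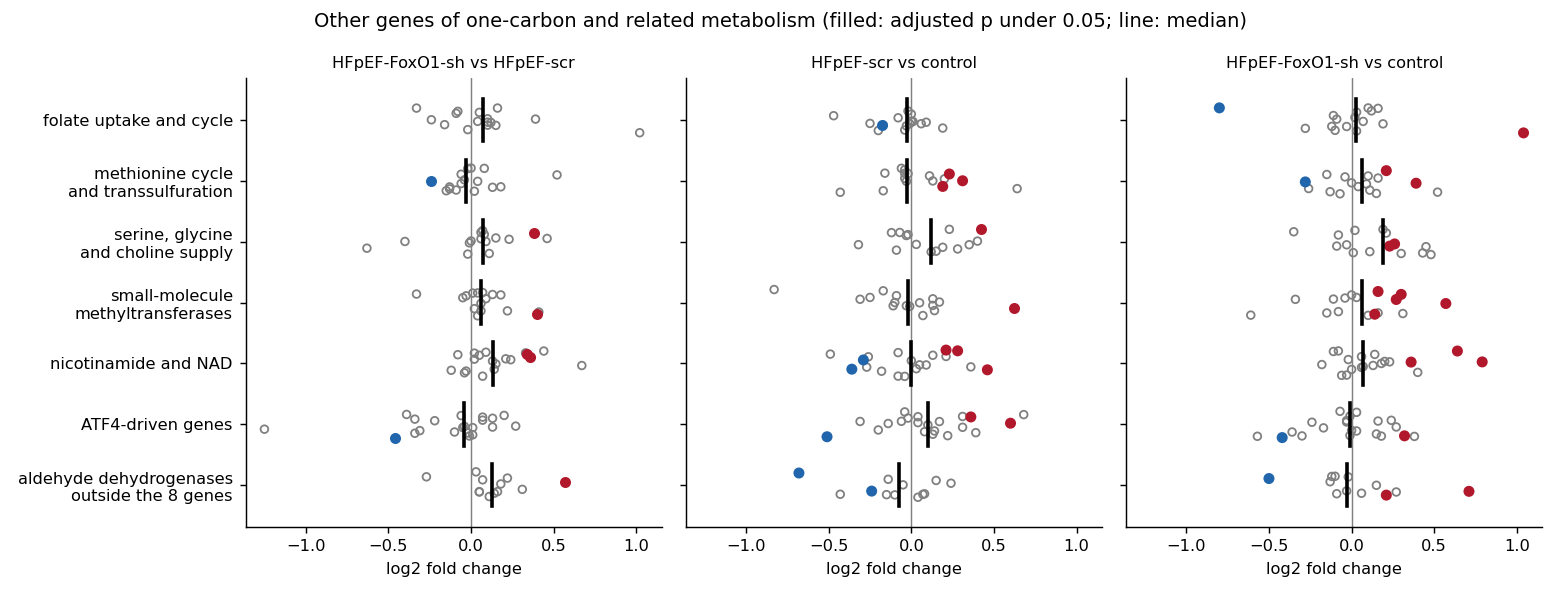
Log2 fold changes of 115 tested genes in 7 lists of one-carbon and neighbouring metabolism, 1 open point per gene, filled red where it rose and blue where it fell at an adjusted p under 0.05, with a black line at each list's median; the panels are HFpEF-FoxO1-sh against HFpEF-scr, HFpEF-scr against control and HFpEF-FoxO1-sh against control. The medians lie near 0, and 7, 16 and 20 points are filled from left to right. The list labelled small-molecule methyltransferases includes Carm1, Icmt, Lcmt1 and Pcmt1, which act on proteins.

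Genes whose profile was most like that of Inmt or Aldh1l1 were ranked by the mean absolute difference between standardised log2 CPM over the 14 libraries, with 11929 genes compared, all averaging 2 CPM or more. Nearest to Inmt were Kcnh2 at 0.34 SD, Rspo1 at 0.36, Ankrd63 at 0.39, Tmtc4 at 0.41 and Efemp1 at 0.42. For Inmt and Aldh1l1 alike, this ranking over the levels includes the group difference for which the gene was chosen. Once group means were taken out, so that only the differences between replicates counted, the nearest were Ddb2 at 0.23 SD, Maob at 0.38, Fto at 0.43, and Alg14 and Efemp1 at 0.44 each. Efemp1, an extracellular matrix gene, was the one gene named in both rankings. The level of Kcnh2, a potassium channel gene, was 140 ± 8.13 CPM in HFpEF-FoxO1-sh (SD, n = 5), 109 ± 9.50 in HFpEF-scr (SD, n = 4) and 133 ± 12.3 in control (SD, n = 5).

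Nearest to Aldh1l1 were 1700030L20Rik at 0.27 SD, Haus4 at 0.35, Ints5 at 0.39, and Mpst and Tst at 0.40 each. Mpst and Tst encode sulfurtransferases, and Tst had 12.6 ± 1.16 CPM in HFpEF-FoxO1-sh (SD, n = 5), 8.97 ± 0.521 in HFpEF-scr (SD, n = 4) and 11.7 ± 1.09 in control (SD, n = 5). With group means taken out the nearest were Cybb at 0.41 SD, Dync2li1 at 0.42, Mettl7a1 at 0.43, and Cir1 and 1700030L20Rik at 0.45 each. Inmt and Aldh1l1 themselves were 0.65 SD apart, where the median gene was 1.10 SD from Inmt. Both were chosen for a rise between the same groups, so nothing is read from that distance. With group means taken out they were 1.09 SD apart, against a median of 1.11, so that within groups their profiles were no more alike than those of a typical pair with Inmt. Aldh1l2 was 0.63 SD from Inmt on that scale, at rank 140, and Mthfd2 was 0.84 SD from Aldh1l1, at rank 1224. For Inmt and Aldh1l2 the lowest library of HFpEF-scr was replicate 1, at 3.52 and 9.71 CPM, and its part in their distance was not tested. Nnmt averaged less than 2 CPM and so was not among the 11929 genes. With only 12 to 37 counts per library, it was 1.44 SD from Inmt over the levels, which corresponds to rank 11436 beside them. The libraries share their composition and depth across genes, so these distances are a description.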

How the data were processed

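The deposited table holds expected counts per gene, estimates that need not be whole; per the submitters' processing notes Bowtie2 2.1.0, RSEM 1.2.15 and mm10 were used, and the gene annotation and use of strand are not given in the sources used here. Per the labels' protocols, poly(A) RNA was made into libraries with a Swift Biosciences kit. Columns were matched to samples by library number. Between 15.1% and 16.4% of values per library were not whole, and 27 gene names had become dates.

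Expected counts were rounded and tested in edgeR 4.0.16 (R 4.3.3) with TMM scaling, filterByExpr on the groups and 1 quasi-likelihood fit over all 14 libraries with 1 coefficient per group. F-tests were two-sided, and p were adjusted by Benjamini-Hochberg over 13588 genes, called under 0.05. The SE is the log2 fold change divided by the root of its F statistic, and intervals are at 95%. CPM are TMM-scaled, and profile distances use log2 CPM with a prior count of 2. The common biological coefficient of variation was 0.0999. The test was also run on simulated counts with independent genes and no outlying library, and the outcome is not given here.

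The 8 genes, the lists and the markers were chosen with earlier results of these data known. Named genes are the 8, Foxo1, up to 4 called genes per list and comparison by smallest p, 5 nearest profiles per ranking, and uncalled genes whose place in the pathway a sentence needed. A single gene taken by this rule is left out of the text. Of 135 listed pathway symbols 133 were found, 3 under older symbols. In each comparison the alternatives were DESeq2 1.42.0, its size factors, limma voom (limma 3.58.1), other filters, the compared groups alone, a fold of 1.2, a replicate block and leaving out each library. Within groups, no pair of libraries agreed within sampling noise. Figures were drawn with matplotlib 3.10.9.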

Additional observations from a re-analysis of the deposited data

Results flagged for a closer look

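In each group of 4 or 5 libraries the highest and lowest value of the 8 genes, Foxo1 and the marker sums was compared with its neighbour by Dixon's gap, which chance flags in about 1 of 20 groups. Of 72 groups checked 3 held such a value, all of them marker sums and none of the 8 genes. Red cell markers summed to 6024 CPM in HFpEF-scr 1, where the next library of that group had 1110 CPM and the lowest 538 CPM. HFpEF-scr 1 was also the lowest library of its group for Inmt, Aldh1l1, Aldh1l2 and Shmt1. It differed in other marker sums too, none of them flagged. Its endothelial and macrophage sums, 2235 and 248 CPM, were the highest of its group. Its cardiomyocyte and clock sums, 108047 and 981 CPM, were the lowest. The part of red cells or of these other shifts in the levels of those genes was not tested. Adipocyte markers summed to 2.52 CPM in control 2, where the next control library had 1.17 CPM. Liver markers summed to 7.45 CPM in control 1, where the next had 5.12 CPM.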

How the results depend on the processing

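Genes called in HFpEF-FoxO1-sh against HFpEF-scr numbered 486, and 876 with DESeq2, 291 with the replicate block, 16 against a fold of 1.2 and from 162 to 668 without 1 library. HFpEF-scr against control gave 1001, and 504 with the 2 groups only, 56 against a fold of 1.2 and from 537 to 1106 without 1 library. HFpEF-FoxO1-sh against control gave 1760, and 218 against a fold of 1.2 and from 1228 to 1683 without 1 library. Of the pathway genes, 7 were called between the hairpins, and 12 with DESeq2, 0 against a fold of 1.2 and from 2 to 9 without 1 library. HFpEF-scr against control gave 16, and 7 with the 2 groups only, 2 against a fold of 1.2 and from 5 to 18 without 1 library. HFpEF-FoxO1-sh against control gave 20, and 6 against a fold of 1.2 and from 17 to 22 without 1 library. Without 1 library, HFpEF-FoxO1-sh against HFpEF-scr gave 1.32 to 1.82 for Inmt, 0.75 to 1.00 for Aldh1l1 and 0.05 to 0.35 for Aldh1l2. Of 210 alternative values of the 6 genes that were tested 4 lost and 3 gained a call; Shmt1 was at an adjusted p of 0.388 against a fold of 1.2, and Shmt2 in HFpEF-scr against control was called without HFpEF-scr 3 (adjusted p = 0.0250). Foxo1 changed sign near 0, ranging without 1 library from -0.08 to 0.02 between the hairpins, positive without HFpEF-scr 2, and from -0.07 to 0.02 in HFpEF-scr against control, positive at 0.01 when control 4 or HFpEF-scr 3 was left out and at 0.02 when HFpEF-scr 4 was. The causes of these shifts were not tested. Deviations of same-numbered libraries correlated from -0.19 to 0.11 over all genes, which cannot show whether replicate numbers pair the libraries for some genes. Inmt was highest in replicate 4 of each group and Aldh1l1 in replicate 2. With the block Inmt gave 1.63 ± 0.18 between the hairpins, against 1.50 ± 0.28 without it. Aldh1l1 gave 0.89 ± 0.15, against 0.84 ± 0.18. A factor shared by same-numbered libraries was not tested. With 12 to 51 counts per library, Nnmt and Mthfd2 are the least precise.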
